A study of Mus musculus with 5 samples.

Results

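The chromatin contact map of intraTAD2 limb buds was compared with the authors' wild-type map over the captured region around the Sonic hedgehog gene Shh, on mouse chromosome 5 from 27,480,001 to 30,270,000 (build mm10). Every pair of 5 kb bins in that region was taken, which gave 151,525 compared pairs after 8 of 558 bins were left out, of 155,961 captured pairs in all. Of the compared pairs of different bins, 117,288 were listed in both maps. The series holds 5 mutant genotypes with 1 capture Hi-C library each, a method in which pieces of DNA that lie close together in the nucleus are ligated, enriched for a chosen region and sequenced. It addresses how the position of an enhancer at the Shh locus bears on its function.

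The intraTAD2 embryos were homozygous, came from mating and were taken at E10.5. Their limb buds were fixed in 2% formaldehyde for 10 min, and the chromatin was cut with DpnII before ligation. The wild-type map belongs to no listed sample. By its name it also comes from E10.5 limb buds, and its values are the authors'. In every ratio below, genotype and origin of the library cannot be told apart. What was changed in the intraTAD2 allele, and where, is not given in the sources used here. The other 4 mutant maps, intraTAD3, intraTAD2-i4CTCF, intraTAD2-2xBorCTCF and intraTAD2-1xBorCTCF (homozygous, E10.5, the first pair from mating and both BorCTCF genotypes from tetraploid aggregation), are given beside a result only to show where intraTAD2 stood. They were set against the same wild-type map, so those ratios share it.

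Shh encodes a signalling protein, secreted from the posterior limb bud, that sets the number and identity of digits. In the limb bud it is switched on by the ZRS, an enhancer that lies far away inside an intron of the neighbouring gene Lmbr1, and both ends are held in one topologically associating domain (TAD), a stretch of chromatin whose parts meet each other more often than they meet the neighbouring stretches. Domain borders commonly carry sites of the architectural protein CTCF, which stops the extrusion of chromatin loops by cohesin.

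Contacts are read from ligated ends at DpnII sites, whose letters are GATC on either strand. The promoters of Cnpy1, a neighbour of the homeobox gene En2, and of the homeobox gene Mnx1, both lower in their contact with Shh in intraTAD2, are shown with those sites in capitals, from 250 bases before to 50 after the annotated start (RefSeq, GRCm38.p6). The Cnpy1 window lies at chr5:28245739-28246038 and the Mnx1 window at chr5:29478421-29478720, both on the minus strand.
Cnpy1: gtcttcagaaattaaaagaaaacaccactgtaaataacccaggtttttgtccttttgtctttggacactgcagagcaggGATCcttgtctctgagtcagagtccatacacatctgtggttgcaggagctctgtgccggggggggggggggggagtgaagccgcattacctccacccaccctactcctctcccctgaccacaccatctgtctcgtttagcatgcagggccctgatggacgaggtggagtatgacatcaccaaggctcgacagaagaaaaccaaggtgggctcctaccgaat
Mnx1: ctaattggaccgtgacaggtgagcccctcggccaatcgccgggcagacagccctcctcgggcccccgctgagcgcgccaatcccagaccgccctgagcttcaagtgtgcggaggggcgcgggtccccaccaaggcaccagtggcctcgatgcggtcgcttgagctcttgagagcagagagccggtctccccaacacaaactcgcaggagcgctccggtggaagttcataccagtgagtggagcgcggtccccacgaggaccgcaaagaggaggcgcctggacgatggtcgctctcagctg
The Cnpy1 window held 1 DpnII site and the Mnx1 window 0, and 48.0% of 32,851 promoter windows of this length held at least 1. With bins of 5 kb, a promoter was not resolved from the rest of its bin.

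The intraTAD2 library was the deeper of the pair. Balanced values (scaled by the authors so that each bin has the same total) are whole contacts times a factor for each bin, and the contacts recovered from them came to 2,942,790 in intraTAD2 and 1,646,616 in wild type. Of all captured pairs, 88.1% were listed in intraTAD2 and 79.8% in wild type. Pairs 5 to under 20 kb apart took 24.6% of the balanced contact in intraTAD2 and 24.2% in wild type. Pairs 1000 to under 2000 kb apart took 6.85% in intraTAD2 and 8.12% in wild type, so intraTAD2 had the smaller share of very long contacts. Every value was therefore divided by the mean of its own map at the same distance, which makes 1 the average level, and is called contact from here on. With 1 library a side there was no test, and the 95% intervals of the log2 ratios of intraTAD2 to wild type cover counting error only. Contacts per bin had a Spearman correlation of 0.93 between intraTAD2 and wild type over 550 bins, against 0.98 between intraTAD2 and intraTAD3.

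By contact across 20 kb on either side, a measure added after the data were seen, the lowest ratio to wild type lay inside the gene desert of the Shh TAD, 230 kb from the bin of Shh. The bin at 28,685,001 to 28,690,000 at this point is called the site bin, and the 6 bins from 28,670,001 to 28,700,000 are called the site window. The bin was taken up because earlier results of these data had singled it out, and no label ties it to the allele. The stretches of 20 kb on its sides, the bin itself left out, had a contact with each other of 0.662 in intraTAD2 and 0.934 in wild type (log2 ratio -0.50, interval -0.59 to -0.40), from 2553 and 2070 recovered contacts. Of the 16 bin pairs in that window, 15 were lower in intraTAD2 and 1 was higher. These pairs share bins and are not independent of each other. With recovered contacts that were not balanced the log2 ratio was -0.64, outside the interval given above. The part of balancing in the difference was not tested. Against the mean of the 4 other mutant maps it was -0.29, and with arms of 40 and 100 kb it was -0.29 and -0.11.

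Contact across a point was then measured in the same way at every bin start of the region, with 20 kb on either side. Of 551 positions, 3 were 1.3-fold or more lower in intraTAD2 (0.544%) and 0 were higher (0%). The pair with the lowest ratios was the start and the end of the site bin. At 28,690,001 the contact was 0.678 in intraTAD2 and 0.928 in wild type (log2 ratio -0.45, interval -0.54 to -0.37). At 28,685,001 it was 0.669 in intraTAD2 and 0.898 in wild type (-0.43, -0.51 to -0.34). The neighbouring positions 28,680,001 (-0.30) and 28,695,001 (-0.28) had the ranks 4 and 5. Adjacent positions share most of their bin pairs, so these ranks do not give the width of the dip. The position with rank 3, 29,050,001 (0.741 in intraTAD2 and 0.969 in wild type, -0.39, -0.70 to -0.068), rested on only 684 contacts in intraTAD2 and 380 in wild type. Among positions with at least 1000 contacts in both maps and over 25 kb from the site bin, the lowest log2 ratio was -0.27, at 29,025,001, and the median over all positions was 0.00032.

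**Figure D1:**
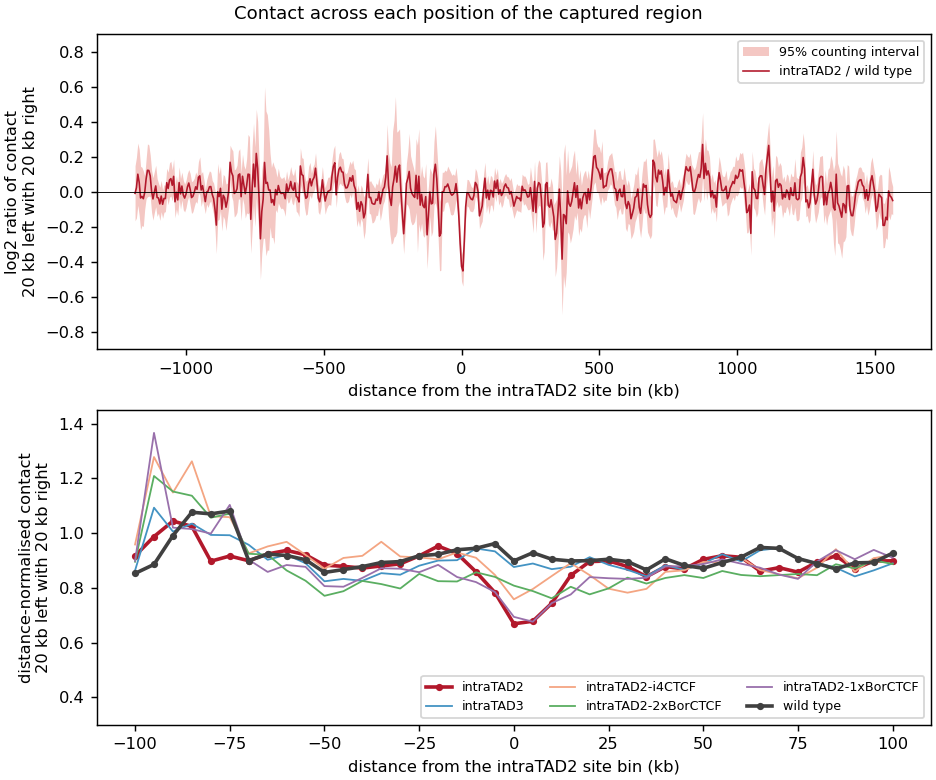
The upper plot gives, for every position by its distance from the intraTAD2 site bin (kb), the log2 ratio of contact between its left and right arms of 20 kb, intraTAD2 over wild type, with the 95% counting interval as a band. The lower plot gives the contact itself in all 6 maps within 100 kb of the site bin: intraTAD2 drops to 0.669 and 0.678 there, against 0.898 and 0.928 in wild type.

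The other mutant maps were spread between these values. Across the same 20 kb arms without the site bin, contact was 0.894 in intraTAD3, 0.789 in intraTAD2-i4CTCF, 0.835 in intraTAD2-2xBorCTCF and 0.714 in intraTAD2-1xBorCTCF, against 0.934 in wild type. All 3 maps whose names extend intraTAD2 thus lay between the intraTAD2 value and the intraTAD3 value. At 28,690,001 the log2 ratio to wild type was -0.062 in intraTAD3, -0.22 in intraTAD2-i4CTCF, -0.24 in intraTAD2-2xBorCTCF and -0.46 in intraTAD2-1xBorCTCF. In intraTAD2-1xBorCTCF this position also had the lowest ratio of the whole region, whereas in intraTAD3, intraTAD2-i4CTCF and intraTAD2-2xBorCTCF the lowest ratio lay elsewhere.

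The difference faded with distance. Bin pairs that bridge the site bin at 10 to 15 kb, the site bin left out, had a contact of 0.542 in intraTAD2 and 0.881 in wild type (log2 ratio -0.70, interval -0.86 to -0.55). At 20 to 35 kb the contact was 0.698 in intraTAD2 and 0.949 in wild type (-0.44, -0.54 to -0.34). At 40 to 75 kb it was 0.825 in intraTAD2 and 0.960 in wild type (-0.22, -0.28 to -0.16). The deficit thus shrank with each step and was small at 80 to 155 kb, where contact was 1.01 in intraTAD2 and 1.05 in wild type (-0.066, -0.12 to -0.016). At 160 to 315 kb, with 1.19 in intraTAD2 and 1.17 in wild type, the interval included 0 (0.032, -0.00071 to 0.065). In intraTAD3 the bridging contact was 0.872 at 10 to 15 kb and 0.944 at 20 to 35 kb, next to the wild-type values.

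**Figure D2:**
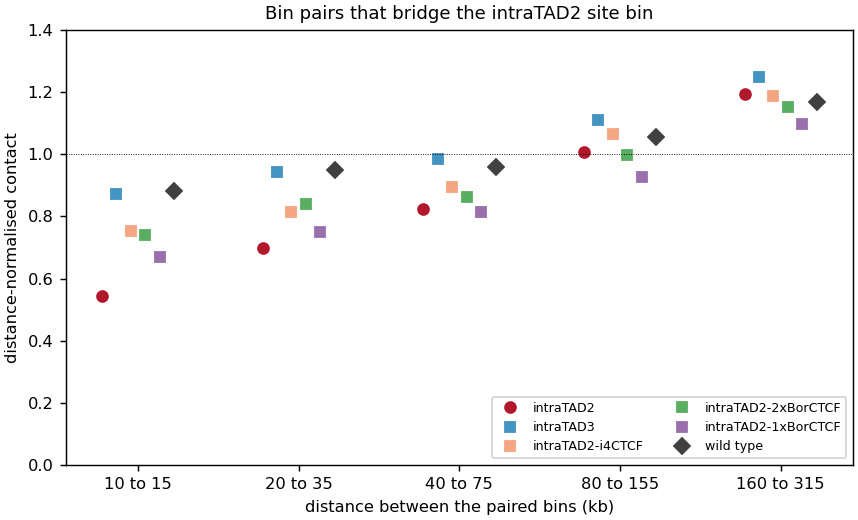
Contact (1 is the average at that distance) of bin pairs that bridge the intraTAD2 site bin, by the distance between the bins (kb), 1 point for each map. The intraTAD2 point is the lowest at 10 to 15 kb (0.542 against 0.881 in wild type) and at 20 to 35 kb, and lies beside wild type at 160 to 315 kb.

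The site bin itself also stood out by the number of its contacts, which balancing removes. It held 38,359 recovered contacts in intraTAD2 and 11,110 in wild type. Relative to the mean bin of each map that was 3.79 in intraTAD2 and 2.01 in wild type. The log2 ratio of 0.92 was the highest of 492 bins with at least 2000 contacts in both maps. Of all 550 compared bins, 9 were 2-fold or more higher, each with fewer contacts than that limit in at least 1 map. The 95th percentile over the compared bins was 0.73. The level was 1.91 in intraTAD3, 2.43 in intraTAD2-i4CTCF, 2.09 in intraTAD2-2xBorCTCF and 3.38 in intraTAD2-1xBorCTCF. The bin before it, at 28,680,001, had 1.93 in intraTAD2 and 2.00 in wild type, so the excess was limited to a single bin on that side. On the Lmbr1 side, the bin at 28,720,001 was low, with 1.07 in intraTAD2 and 1.54 in wild type. There intraTAD3 had 1.51, next to wild type, and the 3 maps whose names extend intraTAD2 had 1.13 to 1.17. Within 5 to 15 kb of the site bin, its balanced contact was 0.728 in intraTAD2 and 0.881 in wild type on the Shh side (-0.28, -0.39 to -0.16). On the Lmbr1 side it was 0.735 in intraTAD2 and 0.892 in wild type (-0.28, -0.38 to -0.18). The part of the unequal number of contacts per bin in these differences was not tested.

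At the level of the TAD, the site bin splits the domain into a Shh part and a Lmbr1 part, whose inner contacts moved little. Within the Shh part contact was 0.914 in intraTAD2 and 0.881 in wild type (log2 ratio 0.054, 0.017 to 0.091). Within the Lmbr1 part it was 1.14 in intraTAD2 and 1.12 in wild type (0.025, 0.012 to 0.038). Between the parts the direction depended on distance: up to 100 kb contact was 0.859 in intraTAD2 and 0.979 in wild type (-0.19, -0.24 to -0.14). Over 100 kb it was 2.05 in intraTAD2 and 1.95 in wild type (0.071, 0.048 to 0.093). Long contacts between the part of Shh and the part of the ZRS were therefore not lower in intraTAD2.

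The contact between Shh and its enhancer was measured with the ZRS stretch, the 3 bins of Lmbr1 from 29,305,001 to 29,320,000 in which the intraTAD3 map had under 10% of the wild-type contacts. The Shh window, the bins of the gene and 1 on either side, had a contact with this stretch of 6.82 in intraTAD2 and 5.57 in wild type (log2 ratio 0.29, 0.077 to 0.51), from 563 and 340 recovered contacts. This direction turned with contacts that were not balanced (-0.12), and the bins of the stretch held 0.824 of the contacts of a mean bin in intraTAD2 and 1.15 in wild type. Whether Shh met the enhancer more often in intraTAD2 is thus not settled by these maps. Bin by bin, contact with Shh was 7.27 in intraTAD2 and 4.69 in wild type at 29,305,001 (0.63, 0.12 to 1.14), from 130 and 45 contacts. At 29,310,001 it was 6.42 in intraTAD2 and 6.44 in wild type (-0.0042, -0.32 to 0.31), and at 29,315,001 it was 6.78 in intraTAD2 and 5.56 in wild type (0.28, -0.033 to 0.60). The 3 intervals overlap, and the differences between the bins were not tested. Within the Shh window, the bin at 28,465,001 had the widest gap, with 6.41 in intraTAD2 and 3.88 in wild type (0.72, 0.31 to 1.13). Contact of the Shh window with Lmbr1 without the stretch was 5.91 in intraTAD2 and 5.56 in wild type (0.088, 0.015 to 0.16).

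The contact of the site window with the ZRS stretch was 2.11 in intraTAD2 and 1.97 in wild type, a difference within counting error (0.096, -0.19 to 0.38), from 363 and 229 contacts. For the site bin alone it was 1.85 in intraTAD2 and 2.23 in wild type, also within counting error (-0.27, -0.76 to 0.23). Between Shh and the site window, contact was 1.26 in intraTAD2 and 1.08 in wild type (0.23, 0.060 to 0.39), and 1.02 in intraTAD3, 1.10 in intraTAD2-i4CTCF, 2.16 in intraTAD2-2xBorCTCF and 1.86 in intraTAD2-1xBorCTCF. Both BorCTCF maps thus stood well above intraTAD2 here, and against the mean of the 4 other mutant maps the ratio of intraTAD2 was -0.28, while contacts that were not balanced gave 0.51 against wild type. Shh met the site window at about the average of that distance, while it met the ZRS stretch at several times the average in both maps. With the rest of the TAD the site window had a contact of 1.38 in intraTAD2 and 1.31 in wild type (0.074, 0.037 to 0.11). That ratio was 0.28 with contacts that were not balanced, 0.12 with unlisted bin pairs left out, 0.14 with a site window of 2 bins and 0.0024 against the mean of the 4 other mutant maps.

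By the median of its steps, the Shh window had more contact inside the TAD in intraTAD2 than in wild type and less beyond it. Part of this pattern was also seen in intraTAD3. In steps of 50 kb along the region, 8 of 17 steps in the TAD had an interval above 0 and 0 below, with a median log2 ratio of 0.14. On the side of the homeobox gene En2, 1 of 19 steps was above and 6 were below, with a median of -0.17. On the side of Mnx1, 0 of 17 were above and 3 below, with a median of -0.19. In each of these sets most intervals included 0. For scale, over all pairs of 50 kb blocks 90 of 1430 were above and 107 below. With both blocks in the TAD, 24 of 171 were above and 5 below. The steps of Shh were not compared under the alternative settings. The TAD steps that were higher lay beside the site bin and toward Lmbr1. At 29,130,001, in the gene desert before Rnf32, contact was 3.19 in intraTAD2 and 2.48 in wild type (0.36, 0.18 to 0.54). There intraTAD3 had 2.91, intraTAD2-i4CTCF 2.62, intraTAD2-2xBorCTCF 2.40 and intraTAD2-1xBorCTCF 2.39. At 29,180,001 intraTAD3 had 4.66, above intraTAD2 (4.33) and wild type (3.72). In that step intraTAD2-i4CTCF had 4.13, intraTAD2-2xBorCTCF 3.38 and intraTAD2-1xBorCTCF 3.05. At 29,280,001, the step of Lmbr1 that holds the ZRS stretch, contact was 7.64 in intraTAD2 and 6.67 in wild type (0.20, 0.080 to 0.31). It was the highest step of both maps. In this step intraTAD3 had 6.65, intraTAD2-i4CTCF 7.00, intraTAD2-2xBorCTCF 6.42 and intraTAD2-1xBorCTCF 6.14. From 28,730,001 to 29,030,000, between the site bin and that rise, the log2 ratios lay between -0.073 and 0.064 and all intervals included 0.

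**Figure D3:**
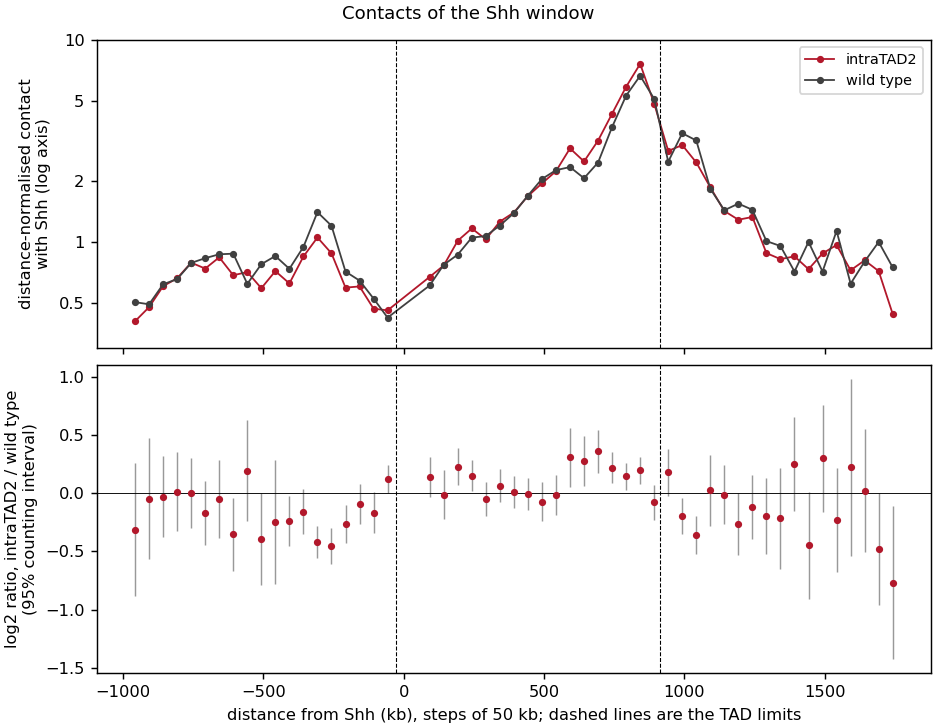
Contact of the Shh window in steps of 50 kb by distance from Shh (kb; log axis) in intraTAD2 and wild type, and below it the log2 ratio of intraTAD2 to wild type with its 95% counting interval. Inside the TAD, between the dashed lines, 8 of 17 intervals lie above 0 and 0 below, and the others include 0. Over all pairs of 50 kb blocks, 90 of 1430 lie above and 107 below. The step of En2 falls to 1.06 in intraTAD2, against 1.41 in wild type.

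Outside the TAD, 9 steps had an interval below 0. They held En2, Cnpy1 (2 steps), Htr5a, Insig1, Nom1 with Mnx1, Hadhb with Adgrf3, or no gene. The step at 30,180,001 with Hadhb and Adgrf3 had the lowest ratio (0.442 in intraTAD2 and 0.751 in wild type, -0.77, -1.42 to -0.11), from 42 and 47 contacts. The step at 28,130,001 with En2, an engrailed homeobox gene, had a contact of 1.06 in intraTAD2 and 1.41 in wild type (-0.42, -0.55 to -0.28). The next step, at 28,180,001 with Cnpy1, had 0.882 in intraTAD2 and 1.21 in wild type (-0.45, -0.61 to -0.30). In the step of En2, intraTAD3 and intraTAD2-2xBorCTCF had 1.12, intraTAD2-i4CTCF 1.53 and intraTAD2-1xBorCTCF 1.63. In that of Cnpy1, intraTAD3 had 0.941, intraTAD2-2xBorCTCF 0.919, intraTAD2-i4CTCF 1.37 and intraTAD2-1xBorCTCF 1.21. Rbm33, an RNA-binding protein gene directly across the border, had the opposite sign in its last step before Shh, with 0.460 in intraTAD2 and 0.424 in wild type (0.12, 0.0013 to 0.24). On the other side, the step at 29,430,001 with Mnx1, a homeobox regulator of motor neurons, and its neighbour Nom1 had 3.03 in intraTAD2 and 3.47 in wild type (-0.19, -0.35 to -0.040). The step at 29,480,001 behind Mnx1 had 2.48 in intraTAD2 and 3.19 in wild type (-0.36, -0.52 to -0.20). There the other mutant maps had 2.04 to 2.64, all under wild type. In the step of Mnx1 and Nom1, intraTAD3 had 3.22, intraTAD2-i4CTCF 3.62, intraTAD2-2xBorCTCF 2.51 and intraTAD2-1xBorCTCF 3.08.

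Seen from the site window, more steps were higher than lower in intraTAD2, inside the TAD and outside it. Of 53 steps, 11 had an interval above 0 and 3 below. In the TAD, 4 of 17 were above and 1 below. On the En2 side 5 of 19 were above and 2 below, and on the Mnx1 side 2 of 17 were above and 0 below. Over all pairs of 50 kb blocks of the region, 90 of 1430 were above and 107 below. With the step of Nom1 and Mnx1 the site window had a contact of 0.761 in intraTAD2 and 0.483 in wild type (0.65, 0.38 to 0.93), and with the step at 29,580,001 in the ubiquitin ligase gene Ube3c 0.696 in intraTAD2 and 0.484 in wild type (0.52, 0.23 to 0.82). With the step of En2 it was 0.626 in intraTAD2 and 0.459 in wild type (0.45, 0.21 to 0.69). All of these are levels under the average of their distance in both maps. The other mutant maps had 0.492 to 0.709 in the step of Nom1 and Mnx1 and 0.516 to 0.747 in that of Ube3c, all above wild type. In the step of En2 they had 0.443 to 0.766, with intraTAD3 under wild type. A ratio above wild type in the steps of Nom1 with Mnx1 and of Ube3c was thus not particular to intraTAD2. Inside the TAD, the step at 29,330,001 in Lmbr1 had 1.76 in intraTAD2 and 1.36 in wild type (0.37, 0.17 to 0.57). There the other mutant maps had 1.53 to 1.82, again all above wild type. With shares near those over all block pairs, the ZRS stretch had 4 of 53 steps above and 5 below. Those below included Ube3c at 29,530,001, with 0.580 in intraTAD2 and 0.841 in wild type (-0.54, -0.86 to -0.22), and the step of Nom1 and Mnx1, with 0.485 in intraTAD2 and 0.578 in wild type (-0.25, -0.47 to -0.033).

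Among the genes of the region, few pairs passed 1.3-fold, and most of those were lower in intraTAD2. Of 195 gene pairs with at least 50 contacts in both maps, 2 were higher (1.03%) and 8 were lower (4.1%), and 45 more had too few contacts. The counts were 0 higher and 27 lower with values divided by the map total, and 3 higher and 5 lower with unlisted bin pairs left out. The lower pairs joined Shh to En2 (1.37 in intraTAD2 and 1.80 in wild type, -0.40), to Cnpy1 (0.766 in intraTAD2 and 1.05 in wild type, -0.45) and to the cytokine gene Il6. With En2, Shh had 1.49 in intraTAD3, 2.24 in intraTAD2-i4CTCF, 1.44 in intraTAD2-2xBorCTCF and 2.21 in intraTAD2-1xBorCTCF. With Cnpy1 these maps had 0.812, 1.14, 0.819 and 1.00 in the same order. For both pairs, intraTAD3 and intraTAD2-2xBorCTCF thus stood near intraTAD2. For Shh and Il6 the interval included 0 (1.10 in intraTAD2 and 1.50 in wild type, -0.46, -1.13 to 0.22). Rnf32, a RING finger gene beside Lmbr1, had a contact with Il6 of 0.552 in intraTAD2 and 0.880 in wild type (-0.67, -1.08 to -0.26). The other mutant maps had 0.549 to 0.729 there, all under wild type. Lmbr1 had a contact with Il6 of 0.670 in intraTAD2 and 0.887 in wild type (-0.40, -0.63 to -0.17). It was 0.672 in intraTAD3 and 0.807 to 0.922 in the maps whose names extend intraTAD2.

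The homeobox genes En2 and Mnx1, 1302 kb apart on opposite sides of the TAD, had the strongest contact of the lower pairs, which was 8.06 in intraTAD2 and 10.7 in wild type (-0.41, -0.56 to -0.26), from 789 and 718 contacts. The other mutant maps had 8.81 in intraTAD3, 12.2 in intraTAD2-i4CTCF, 5.51 in intraTAD2-2xBorCTCF and 8.98 in intraTAD2-1xBorCTCF, so they fell on both sides of wild type. Insig1, which encodes a sterol-regulated protein of the endoplasmic reticulum, had a contact with Mnx1 of 1.58 in intraTAD2 and 2.15 in wild type (-0.44, -0.85 to -0.031). The remaining lower pair was Speer4b with the serotonin receptor gene Htr5a (-0.49, interval including 0). The higher pairs were Dpp6, which encodes a potassium channel partner, with Mnx1 (0.829 in intraTAD2 and 0.606 in wild type, 0.45, 0.16 to 0.75), and Htr5a with Nom1 (0.38, interval including 0). Of the 31 pairs of Shh, Rnf32 or Lmbr1, which reaches over the TAD limit, with a gene on the Mnx1 side, 6 had an interval below 0 and 0 above. Over all 195 pairs, 21 intervals lay below 0 and 15 above, and the median log2 ratio was -0.024.

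Contacts were also compared without regard to genes, in blocks of 50 kb. Of 1430 block pairs, 21 were 1.3-fold or more higher in intraTAD2 (1.47%) and 38 were lower (2.66%). The balance of higher and lower blocks depended on the scaling: it was 6 higher and 117 lower with values divided by the map total, 11 higher and 65 lower with unlisted bin pairs left out, and 71 higher and 17 lower with contacts that were not balanced. Up to 1000 kb apart, 3 of 889 were higher (0.337%) and 16 were lower (1.8%). Among block pairs with both blocks in the TAD, 24 of 171 had an interval above 0 and 5 below, with a median log2 ratio of 0.036. Between the TAD and the Mnx1 side, 9 of 318 were above and 36 below, with a median of -0.076. Over all block pairs 90 were above and 107 below, with a median of 0.0056.

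**Figure D4:**
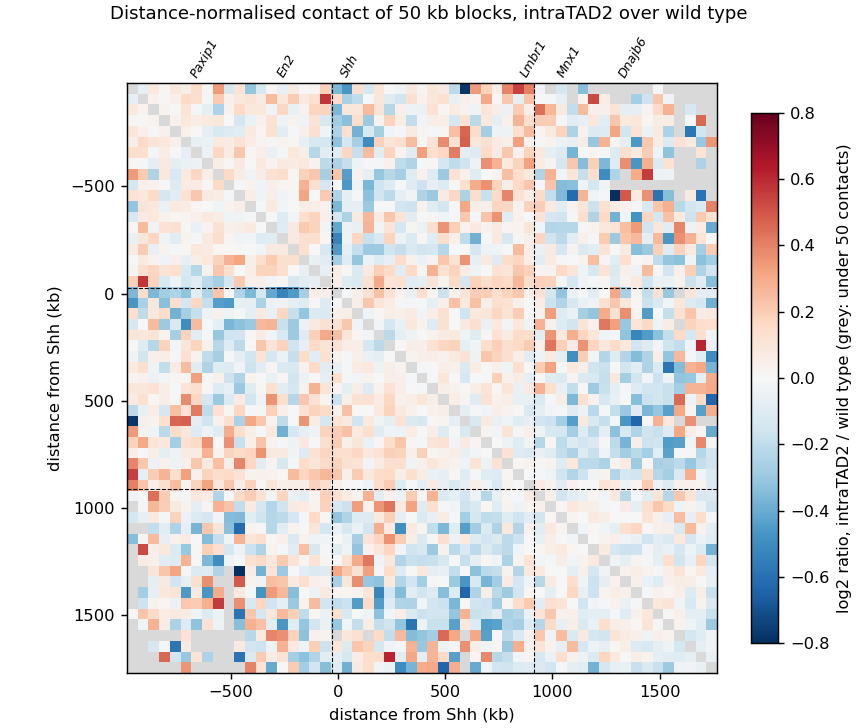
Log2 ratio of contact, intraTAD2 over wild type, for every pair of 50 kb blocks with at least 50 contacts in both maps, by distance from Shh (kb) on both axes; dashed lines are the TAD limits and the colour scale ends at 0.8 on either side. Inside the TAD more intervals lie above 0 than below (24 and 5 of 171, median log2 ratio 0.036). Between the TAD and the Mnx1 side more lie below (9 above and 36 below of 318, median -0.076). Most intervals in both sets include 0. The row of Shh is lower toward Cnpy1.

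Of the block pairs up to 1000 kb apart, the one with Cnpy1 (28,180,001) and Shh (28,430,001) rested on the most contacts among the lowest, 1412 in intraTAD2 and 948 in wild type. Its contact was 0.787 in intraTAD2 and 1.14 in wild type (-0.53, -0.71 to -0.35). The other mutant maps had 0.835 in intraTAD3, 0.894 in intraTAD2-2xBorCTCF, 1.06 in intraTAD2-1xBorCTCF and 1.18 in intraTAD2-i4CTCF. The lowest ratio joined 29,030,001 in the TAD with 29,830,001 behind Dnajb6, a co-chaperone gene, with 0.406 in intraTAD2 and 0.631 in wild type (-0.64, -1.09 to -0.18). The highest joined Dpp6 (27,530,001) with Rbm33 (28,380,001), with 0.547 in intraTAD2 and 0.367 in wild type (0.57, 0.21 to 0.93). The second highest joined the block that holds the site bin (28,680,001) with Nom1 and Mnx1 (29,430,001), with 0.707 in intraTAD2 and 0.525 in wild type (0.43, 0.23 to 0.63), and the same block was also higher with Ube3c at 29,580,001 (0.693 in intraTAD2 and 0.541 in wild type, 0.36, 0.14 to 0.57). Paxip1 (27,730,001), whose protein acts in DNA repair, had less contact with the TAD block at 28,580,001 (0.603 in intraTAD2 and 0.850 in wild type, -0.50, -0.90 to -0.094).

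The limits of the TAD were placed at the minima of an insulation score, the log2 ratio of contact across a position to contact within the 100 kb on either side of it. In wild type they lay at 28,435,001, between Rbm33 and Shh, and at 29,375,001, near the start of Lmbr1, 940 kb apart. At the limit next to Shh the score was -0.81 in intraTAD2 and -0.84 in wild type, and at the limit in Lmbr1 it was -0.57 in intraTAD2 and -0.55 in wild type. Both differences lay within counting error (0.036, -0.054 to 0.13, next to Shh and -0.026, -0.090 to 0.037, in Lmbr1), but neither the direction nor that call was kept in every setting. With windows of 200 kb the difference was -0.099 (-0.16 to -0.040) next to Shh and -0.054 (-0.098 to -0.010) in Lmbr1. With values divided by the map total it was -0.070 (-0.13 to -0.013) in Lmbr1. The minimum next to Shh was at 28,445,001 in intraTAD2 and at 28,435,001 in wild type, 2 bins apart, and the minimum in Lmbr1 was in the same bin in both maps. Contacts inside the TAD averaged 1.47 in intraTAD2 and 1.42 in wild type (0.050, 0.037 to 0.063), with ratios of 0.019 without balancing and 0.089 with unlisted bin pairs left out. Contacts across the border in Lmbr1 averaged 0.639 in intraTAD2 and 0.673 in wild type (-0.073, -0.093 to -0.054), but the ratio to the mean of the 4 other mutant maps was -0.0097. Contacts across the border next to Shh averaged 0.978 in intraTAD2 and 0.962 in wild type (0.024, 0.0082 to 0.040), a direction that turned when values were divided by the map total (-0.056) or set against the mean of the 4 other mutant maps (-0.060). On the En2 side contact averaged 0.986 in intraTAD2 and 0.970 in wild type (0.023, 0.011 to 0.036). The interval included 0 with unlisted bin pairs left out (0.0058), with contacts that were not balanced (0.0052) and with no bin left out (0.0078), and the ratio was 0.10 with values divided by the map total. On the Mnx1 side it averaged 1.11 in intraTAD2 and 1.12 in wild type (-0.019, -0.031 to -0.0077), a direction that turned with values divided by the map total (0.086) and with contacts that were not balanced (0.047). Contacts from one flank to the other, over the TAD, averaged 1.10 in intraTAD2 and 1.11 in wild type, within counting error (-0.014, -0.037 to 0.0089). Divided by the map total the ratio was -0.23 (-0.25 to -0.21).

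Between the limits, the site bin was a shallow dip of the intraTAD2 score. At 28,685,001 the score was 0.035 in intraTAD2 and 0.16 in wild type (difference -0.12, -0.18 to -0.063). The other maps had 0.15 in intraTAD3, 0.088 in intraTAD2-i4CTCF, 0.11 in intraTAD2-2xBorCTCF and -0.034 in intraTAD2-1xBorCTCF. Over 519 positions the median difference was 0.0014, with 20 positions over 0.1 and 27 under -0.1, so the dip was not the largest difference along the region. The highest was at 28,540,001 in the gene desert 85 kb from the Shh bin, where the score was 0.20 in intraTAD2 and -0.00030 in wild type, with 0.028 to 0.11 in the other mutant maps. At 28,240,001 in Cnpy1 the score was -0.049 in intraTAD2 and -0.20 in wild type, and at 29,465,001 before Mnx1 it was 0.11 in intraTAD2 and 0.26 in wild type. The lowest difference was at 29,735,001, the first bin of Dnajb6, where it was -0.28 in intraTAD2 and -0.12 in wild type. There the other mutant maps had -0.30 to -0.22, near intraTAD2, and the bin held 0.149 of the contacts of a mean bin in intraTAD2 and 0.399 in wild type.

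**Figure D5:**
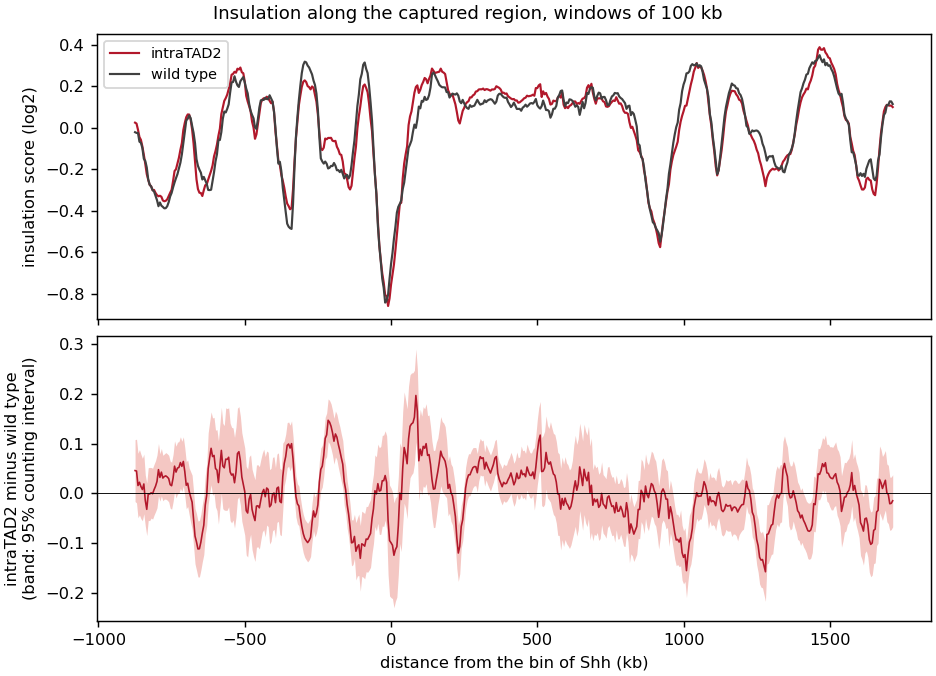
Insulation score by distance from the bin of Shh (kb) in intraTAD2 and wild type, with the difference and its 95% counting interval below. At the wild-type minima beside Shh (-0.81 in intraTAD2 and -0.84 in wild type) and in Lmbr1 (-0.57 in intraTAD2 and -0.55 in wild type) the scores lie close together. The difference at the site bin, at 230 kb, is -0.12.

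Single bin pairs carried little of this. Of the 117,288 pairs listed in both maps, 12,425 were 2-fold or more higher in intraTAD2 (10.6%) and 16,370 were lower (14%), or 15,568 higher and 13,115 lower when the means at each distance left out unlisted pairs. Where the deeper map had under 5 contacts, 35.7% of pairs passed 2-fold, whereas from 50 to under 200 contacts 0.760% did (52 higher and 9 lower of 8022) and from 200 contacts 0% of 1745. These classes go by the larger of the 2 counts, mostly that of the deeper intraTAD2 library, so the split into higher and lower within a class is not a result. Of those 9 lower pairs, 4 had the Shh bin at 28,465,001 as an end. All 4 reached 50 contacts in wild type only and entered the class by that count, so their number is not a result. A higher pair of the class had this bin as an end too, with 28,675,001 (1.25 in intraTAD2 and 0.606 in wild type, from 57 and 18 contacts). The lowest of the 9 was the pair of the Shh bin with 28,330,001 in Rbm33, with 0.339 in intraTAD2 and 1.82 in wild type, from 14 and 51 contacts. The bin itself held 1.47 times the contacts of a mean bin in intraTAD2 and 1.81 times in wild type. The pair of the first bins of En2 and Mnx1 was among the 9 too, with 8.91 in intraTAD2 and 19.2 in wild type from 62 and 79 contacts.

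The profile of each bin between 20 and 1000 kb was also compared as a whole between the maps. Over 492 bins the Spearman correlation between intraTAD2 and wild type had a median of 0.46 and ranged from -0.045 to 0.84. The bins compared share both libraries, and the correlation depends on depth. Of the 5 least alike bins, 4 lay in Dpp6, at 27,690,001, 27,660,001, 27,715,001 and 27,680,001, and 1 lay outside genes, at 27,930,001. The site bin had 0.61, above the median.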

How the data were processed

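The deposited values are a contact signal per pair of bins of 5 kb, balanced by the authors with the Knight-Ruiz method in each map separately and limited to mapping quality 30 or more, per the names of the maps. Per the submitters' processing notes, the tool Bowtie2 (version 2.2.6) was used, and mm9 as well as mm10 is listed as a build, with no roles given. Positions were taken as mm10, since with GRCm38 gene positions the Shh window had its highest wild-type contact within Lmbr1. Of the columns of values, 1 belongs to no sample (wild type). Duplicate removal and probe design are not given in the sources used here.

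Whole contacts were recovered from the values (100% whole within 0.01) and used for depth and for weighted Poisson intervals of 95%. They also served to define the ZRS stretch, for limits and classes by number of contacts, and for the ratios called not balanced. A bin that had fewer partners than 25% of the median bin in either map was left out, unlisted pairs counted as 0 and undefined ones were left out. Gene pairs and blocks needed 50 contacts in both maps, and thresholds were 1.3-fold for windows and 2-fold for bin pairs. Named gene pairs were those past 1.3-fold, and named blocks came from the highest and lowest up to 1000 kb apart; further pairs and bins were named after their values were seen. The members, windows and lists were chosen with earlier results of these data known, and contact across the site bin was added after the data were seen. The recovery of whole contacts and the contact across the site bin were tested on simulated data, drawn from the wild-type map with a planted change. The simulated maps kept the balancing factors of the wild-type map and held no planted excess of contacts at the site bin. They therefore cannot show how balancing acts on the contact across that bin. The other measures were not tested on simulated data. Python 3.11.15, numpy 2.4.6, scipy 1.17.1 and pandas 2.3.3 were used.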

Additional observations from a re-analysis of the deposited data

How the results depend on the processing

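No paired analysis was possible because each genotype has 1 library and no listed sample holds the wild-type map; libraries were not left out for the same reason. Of 162 alternative values over 19 results, 103 stayed within the counting interval or close to the count, 53 moved further and 6 turned a value whose interval had left out 0; in all, 14 of 112 log2 values had the opposite sign. The cause was not tested except where named.

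Log2 ratios of intraTAD2 to wild type are given. With values divided by the map total, which keeps the smaller share of very long contacts in intraTAD2, contact inside the TAD was 0.088, across the border next to Shh -0.056, across the border in Lmbr1 -0.10, within the flanks 0.10 (En2 side) and 0.086 (Mnx1 side, reported as -0.019), over the TAD -0.23 and across the site bin -0.38. That setting gave 6 higher and 117 lower block pairs and 0 higher and 27 lower gene pairs. With recovered contacts that were not balanced, contact inside the TAD was 0.019, within the flanks 0.0052 (En2 side) and 0.047 (Mnx1 side), of Shh with the ZRS stretch -0.12, of the site window with the ZRS stretch -0.19, of Shh with the site window 0.51, of the site window with the rest of the TAD 0.28 and across the site bin -0.64, with 71 higher and 17 lower block pairs.

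With unlisted pairs left out, contact inside the TAD was 0.089, across the border in Lmbr1 -0.11, within the flanks 0.0058 (En2 side) and -0.0049 (Mnx1 side) and of the site window with the rest of the TAD 0.12, with 11 higher and 65 lower block pairs and 5 lower gene pairs. With no bin left out, the flanks were at 0.0078 (En2 side) and -0.0030 (Mnx1 side), with 35 higher block pairs.

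Against the mean of the 4 other mutant maps, contact was -0.060 across the border next to Shh, -0.0097 across the border in Lmbr1, -0.00036 within the Mnx1 side, 0.028 over the TAD, 0.68 between Shh and the ZRS stretch (intraTAD3 has few contacts there), -0.28 between Shh and the site window, 0.0024 between the site window and the rest of the TAD and -0.29 across the site bin. Insulation differed by -0.083 next to Shh and 0.11 in Lmbr1, and 8 block pairs were higher and 17 lower.

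Insulation next to Shh differed by -0.099 (-0.16 to -0.040) with windows of 200 kb and -0.10 with the limits moved 25 kb inward, and in Lmbr1 by -0.10 with windows of 50 kb. With a site window of 2 bins, its contact with the rest of the TAD was 0.14. Contact across the site bin was -0.64, -0.29 and -0.11 with arms of 10, 40 and 100 kb. Asking for 10 contacts in at least 1 map left 4431 higher and 1529 lower bin pairs. That filter goes by the larger count, mostly that of the deeper intraTAD2 library, so its split into higher and lower is not a result. Bins of 10 kb, with contacts that were not balanced, gave 3248 higher and 2093 lower. Fewer pairs were tested in both settings. Asking for 200 contacts in both maps left 4 higher and 12 lower block pairs and 0 higher and 4 lower gene pairs. Depth limits single bin pairs and contacts beyond 1000 kb most.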
